A study of Arabidopsis thaliana with 4 samples.

Results

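The IQD genes of Arabidopsis thaliana were followed in rosette leaves that carried nymphs of the silverleaf whitefly and in leaves that did not. They were taken as every probe set whose single gene symbol in the platform annotation was IQD followed by a number, provided that its mean log2(signal + 16) over the 4 arrays reached the 40th percentile. Of 11 probe sets with such a symbol, 7 met that level, out of 22746 probe sets in all, of which 13648 met it. These were IQD19, IQD22, IQD23, IQD24, IQD28, IQD30 and IQD31. The members were thus chosen by their symbol and by their mean signal over all 4 arrays, and the family itself was picked with earlier results of these data known. RefSeq lists 33 IQD genes under this symbol in either case, and 18 of them had no probe set named here.

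IQD proteins are plant scaffolds that carry a shared domain of repeated IQ motifs, the short helices that bind calmodulin, the small protein that senses calcium. Fluorescent fusions of family members label cortical microtubules, domains of the plasma membrane or nuclei, and several members shape leaf epidermal cells. IQD1, the founding member in Arabidopsis, was described as a gene whose overexpression raises glucosinolates and lowers feeding by caterpillars and aphids. IQD1 had no probe set named here, so it was not analysed.

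The infested group consisted of Columbia plants grown under 8 h of light per day, on each of which 100 adult whiteflies (Bemisia tabaci type B) were released when the plant was 21 days old. The adults were removed after 7 days and the rosettes were collected at 28 days, when the plants were 7 weeks old and nymphs were present. The uninfested group consisted of plants of the same accession, age and caging, from which leaves of matching development were taken. Each group had 2 Affymetrix ATH1 arrays (one-colour arrays of oligonucleotide probe sets), and each array carried RNA pooled from 2 experiments, or 20 plants, so that the spread between arrays is that between pools of whole rosette tissue. In such bulk tissue, fewer cells of a type and less RNA per cell cannot be told apart.

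The values are MAS 5.0 signals on a linear scale, which the authors had scaled to a common trimmed mean, and the array medians lay at 205.2 and 185.05 for infested and 189.0 and 193.75 for uninfested leaves. The array infested 2 stood apart, with 26 tested probe sets at least 8-fold above and 8 at least 8-fold below all other arrays on the log2(signal + 16) scale. The counts were 0 and 0 on each of the other 3 arrays. RCA, the gene of Rubisco activase and the single tested gene of 9 mesophyll markers, read 19115 and 17614 in infested and 19523 and 21392 in uninfested leaves. Markers of epidermis, dividing cells, xylem, phloem and trichomes had no probe set named here.

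All 7 IQD probe sets had a lower mean in infested leaves, and in 6 of them both infested arrays lay below both uninfested arrays. Across all tested probe sets 46.5% had a log2 change below 0 and 28.1% had both infested arrays below both uninfested ones, while 33.8% had them above. The member log2 changes ran from -1.15 to -0.06 with a median of -0.71, against a median of 0.04 over all tested probe sets. By limma with Benjamini-Hochberg adjustment over all tested probe sets 0 of the 7 passed an adjusted p of 0.05 in either direction, where 2.54% of all passed as lower and 2.83% as higher. At an unadjusted p under 0.05, 4 members were lower and 0 higher, where 13.6% and 14.1% of all probe sets were. With equal replicate numbers taken as pairs (the replicate block), 3 members passed as lower, namely IQD22, IQD30 and IQD31. That fit called 10.3% of all tested probe sets lower and 9.19% higher. Its pairing is assumed, and it has 1 residual degree of freedom.

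**Figure D1:**
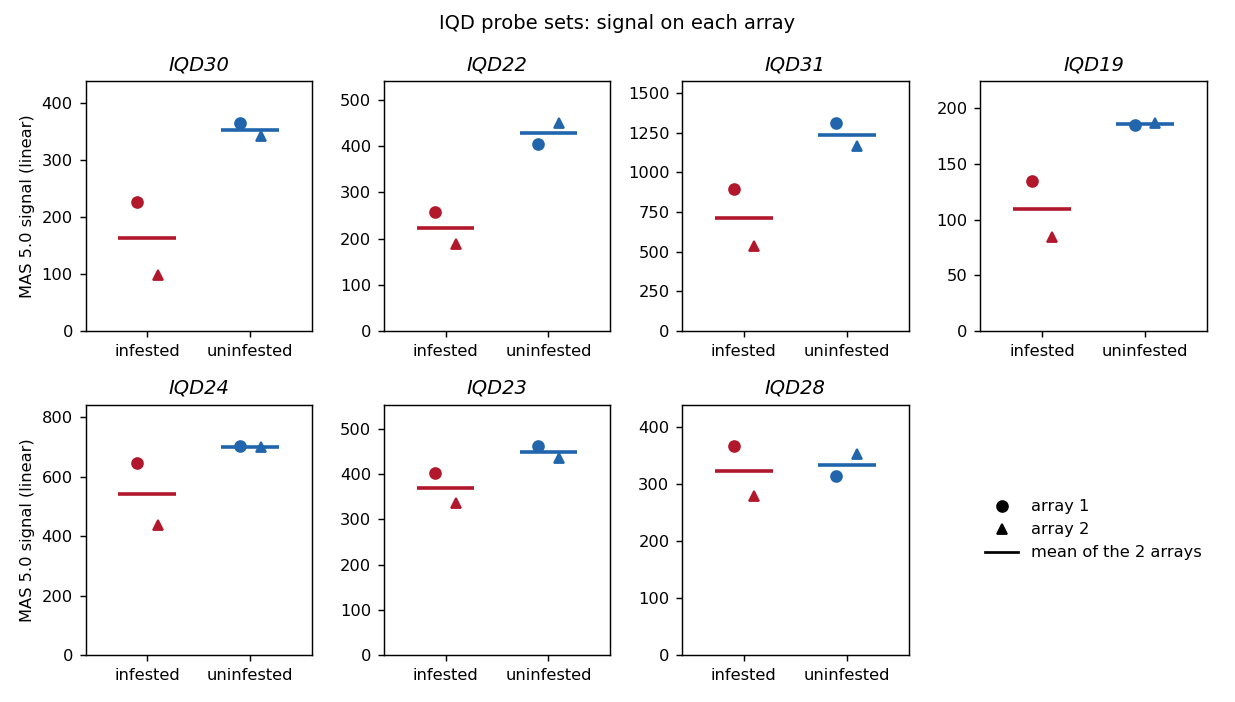
Signal of the 7 IQD probe sets on each array, on a linear axis that starts at 0, with infested arrays in red at the left and uninfested arrays in blue at the right; circles are array 1, triangles array 2 and bars the mean of the 2 arrays. The groups overlap for IQD28 alone, and infested 2 is the lowest array in every panel.

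IQD30 (AT1G18840) had the lowest ratio of infested to uninfested leaves among the members. It read 227.6 and 98.2 in infested leaves, against 366.0 and 342.1 in uninfested leaves. Both infested values were below both uninfested ones, and infested 2 was by far the lowest array. The means were 162.9 ± 91.5 and 354.1 ± 16.9 (SD, n = 2 each), and the log2 change was -1.15 ± 0.37 (SE), 2.22-fold lower. Its adjusted p was 0.119 by limma and 0.0211 with the replicate block.

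IQD22 (AT4G23060) came closest to the threshold. Its transcript is known as one that gibberellin represses and that DELLA proteins, the repressors of gibberellin responses, raise. It read 257.0 and 189.2 in infested leaves, against 404.8 and 450.1 in uninfested leaves. The groups did not overlap, and the gap between them was wider than the spread within either. The log2 change was -0.90 ± 0.20 (SE), 1.87-fold lower, with an adjusted p of 0.0631 by limma. It was 0.0227 with the replicate block, 0.0419 with each array scaled to a common median, 0.0477 after quantile normalization and 0.0496 without infested 2. IQD22 was the 1 member of 7 that passed under either scaling. Median scaling called 4.32% of all tested probe sets lower and 2.51% higher, and quantile normalization 2.64% and 2.56%.

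IQD31 (AT1G74690) read 894.2 and 536.9 in infested leaves, against 1312.4 and 1164.0 in uninfested leaves. Again both infested arrays were the lower ones. The means were 715.5 ± 253 and 1238 ± 105 (SD, n = 2 each), and the log2 change was -0.82 ± 0.27 (SE). The adjusted p was 0.126 by limma and 0.0229 with the replicate block. For IQD30 and IQD31, the block was the difference between passing and not passing in the fits that used all 4 arrays.

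IQD19 (AT4G14750), the dimmest member, read 134.9 and 84.4 in infested leaves, against 184.8 and 186.9 in uninfested leaves. The uninfested arrays almost coincided, while the infested arrays differed from each other by as much as infested 1 did from them. The log2 change was -0.71 ± 0.26 (SE), with an adjusted p of 0.148 by limma and 0.0911 with the block. IQD19 met the required level only through the uninfested group, with a mean log2(signal + 16) of 6.94 in infested and 7.66 in uninfested leaves against a limit of 7.04. A probe set that enters in this way had to differ, so its inclusion in the counts above lends them no weight. Over the 6 other members the median log2 change was -0.60, and 5 had both infested arrays below both uninfested ones. At an unadjusted p under 0.05, 3 were lower, and 3 fell with the block. Over all tested probe sets these shares were 28.1%, 13.6% and 10.3%.

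The 3 other members had smaller differences. IQD24 (AT5G07240) read 646.3 and 439.3 in infested leaves, against 702.3 and 699.6 in uninfested leaves. The arrays were apart, yet infested 1 lay close to the uninfested ones, and the log2 change of -0.38 had an interval from -0.94 to 0.17 (95%). IQD23 (AT5G62070) read 402.0 and 335.6 in infested leaves, against 461.8 and 436.2 in uninfested leaves, a log2 change of -0.28 with an interval from -0.71 to 0.15. IQD28 (AT1G14380) read 366.5 and 278.9 in infested leaves, against 314.7 and 353.9 in uninfested leaves. It was the one member whose groups overlapped: infested 1 was its highest array and infested 2 its lowest. Its log2 change was -0.06, and the interval from -0.55 to 0.44 allows a difference in either direction. The adjusted p of IQD24, IQD23 and IQD28 was 0.315, 0.347 and 0.874 by limma, and 0.220, 0.343 and 0.881 with the block.

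The size of the difference was not the same in the pairs of same-numbered arrays. In the pair numbered 1 the member log2 changes ran from -0.65 to 0.21 with a median of -0.41, and 6 of 7 were below 0. In the pair numbered 2 they ran from -1.65 to -0.33 with a median of -1.01, and all 7 were below 0. Both medians are the values of IQD19, which had to differ. Without IQD19 the median of the 6 others was -0.37 in the pair numbered 1, with 5 below 0. In the pair numbered 2 it was -0.87, with 6 below 0. Each of the 7 members was further below its uninfested partner in the pair numbered 2, as were 59.8% of all tested probe sets. The uninfested arrays differed little for these genes, by log2 values from -0.17 to 0.16. Infested 2 was below infested 1 for all 7, by log2 values from 0.25 to 1.09 in size, where 58.4% of all tested probe sets were lower on infested 2.

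**Figure D2:**
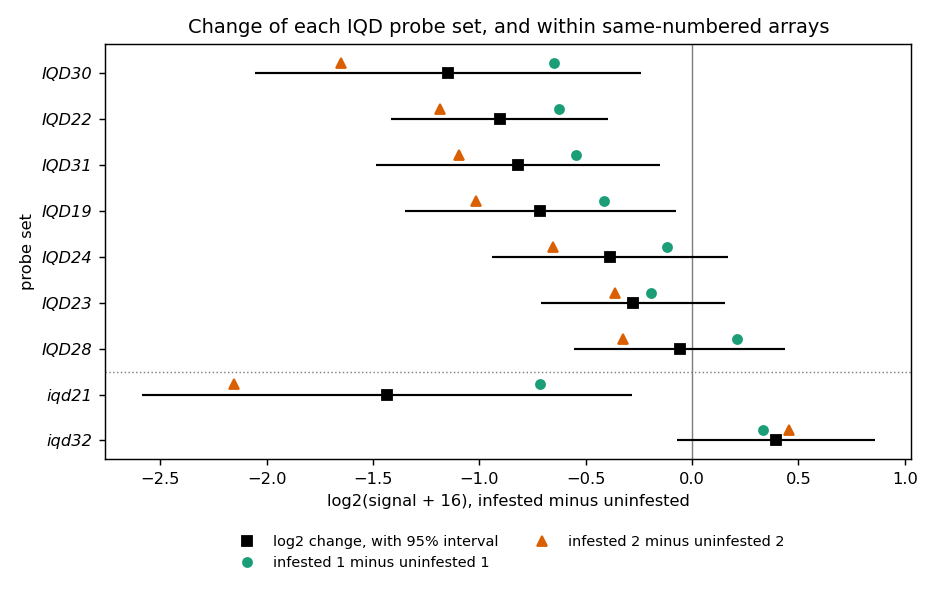
Log2 change (infested minus uninfested, log2(signal + 16)) of each IQD probe set, shown as a square with its 95% interval from limma, with the change within array pair 1 (circle) and array pair 2 (triangle); the 2 probe sets under the dotted line have symbols written in lower case. In all 7 members the triangle lies left of the circle, and for IQD28 the circle lies right of 0.

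Without infested 2, which stood apart, the log2 change was -0.70 for IQD22, -0.60 for IQD30, -0.46 for IQD31 and -0.42 for IQD19. The median over the 7 members was then -0.42, IQD22 passed the test and IQD28 had a positive value of 0.13. That fit called 5.41% of all tested probe sets lower and 4.78% higher. Without infested 1 the median was -1.01 and 5 members passed, IQD19, IQD22, IQD24, IQD30 and IQD31, in a fit that called 18.7% of all tested probe sets lower and 15.3% higher. Calls thus rose across the whole table without infested 1, and not for the IQD genes alone. Leaving out uninfested 1 or uninfested 2 gave 0 members past the test, as it gave 0 of all tested probe sets, with medians of -0.72 and -0.71. The direction of 6 members was thus the same with each array left out, while the count of calls ran from 0 to 5. In these fits the lone array was assumed to vary like the other group. IQD19 is among the 7 members and had to differ, so it lends these medians and counts no weight.

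**Figure D3:**
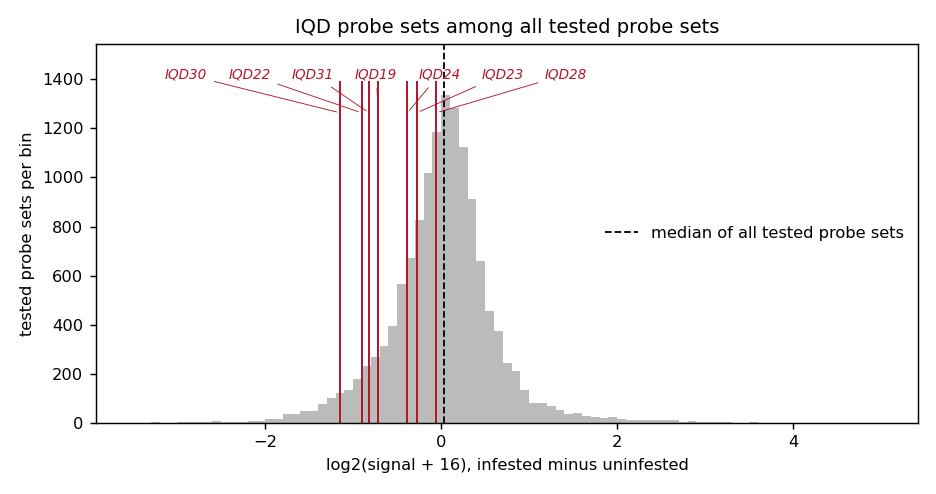
Histogram of the log2 change (infested minus uninfested, log2(signal + 16)) over the 13648 tested probe sets in equal bins, with a red line for each of the 7 IQD members and a dashed line at the median of all. IQD30, at -1.15, had a lower change than all but 3.5% of tested probe sets, and IQD28 lay near the middle, with 41.1% below it.

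Among all tested probe sets, 3.5% had a lower change than IQD30, 6.2% than IQD22, 7.6% than IQD31 and 9.7% than IQD19. The shares were 19.8% for IQD24, 25.3% for IQD23 and 41.1% for IQD28. The members thus ranged from the lower tail of the leaf transcriptome to its middle.

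The platform annotation writes 4 further IQD symbols in lower case, and these did not enter the counts above. The probe set of iqd21 (AT3G49260) read 574.2 and 196.8 in infested leaves, against 952.5 and 930.6 in uninfested leaves, a log2 change of -1.43 ± 0.46 (SE). Its difference was larger than that of any member by value, and it followed the same order of arrays, lowest on infested 2. Its adjusted p was 0.122 by limma and 0.0150 with the replicate block. The probe set of iqd32 (AT1G19870) went against the rest, with 288.5 and 353.4 in infested leaves and 225.5 and 253.6 in uninfested leaves. Its groups were apart with the infested one higher, and the log2 change was 0.39 (adjusted p = 0.233 by limma, 0.207 with the block). Over the 9 tested probe sets in either case 8 had a lower mean in infested leaves, 0 passed, and 4 fell with the block. Of all tested probe sets 46.5% had a log2 change below 0, 2.54% passed as lower and 10.3% did with the block.

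The level that a probe set had to reach was 7.04 on the log2(signal + 16) scale, which is a signal of 116. IQD19 was the member just inside, at 7.30, and IQD27 was the nearest one outside, at 5.90. The others outside were IQD16, known from its gain-of-function mutant with altered epidermal cell shape, IQD18 and IQD26. IQD16 and IQD18, which are known to act with close relatives on microtubule arrays in the embryo, read below the background on all 4 arrays. Background here is the highest of 27 controls that match bacterial RNAs absent from the mixture, between 41.7 and 52.1 by array. IQD26 exceeded it on 1 array. IQD27 read 60.7 and 66.4 in infested leaves, against 16.5 and 46.5 in uninfested leaves, and only its infested values were above background. Of the lower-case symbols, iqd15 and iqd33 were below background on all 4 arrays.

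Few of the known partners of IQD proteins could be followed. Of 9 loci listed as partners, AT5G12150 alone was tested, and it read 1641 and 1046 in infested leaves, against 2048 and 1826 in uninfested leaves. Both infested arrays were lower, as for 6 IQD members and for 28.1% of all tested probe sets. The log2 change was -0.55, and limma gave an adjusted p of 0.213, or 0.0707 with the block. Kinesin light chain-related and ROP GTPase genes, calmodulins and calcium-dependent kinases had no probe set named here.

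Among tubulins, the subunits of the microtubules that many IQD proteins decorate, 6 of 15 listed genes were tested. By limma 0 passed, where 2.54% of all tested probe sets were called lower. At an unadjusted p under 0.05, 3 were lower and 0 higher, where 13.6% and 14.1% of all were. With the replicate block 3 tubulins fell, where 10.3% of all tested probe sets did. The 3 tubulins were TUB7 (log2 change -0.95, adjusted p = 0.0936, or 0.0192 with the block), TUB6 (-0.78, 0.105, or 0.0217) and TUA6 (-0.72, 0.155, or 0.0286). TUA1 had a positive log2 change of 0.43 (adjusted p = 0.184), and the list median was -0.55. Tubulin genes are close copies of each other, and the probes may not tell them apart. Of the microtubule regulators, TON1B, of the complex that places the preprophase band, had a log2 change of -0.34, and SPR1, a protein of microtubule plus ends, had 0.14.

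Of 15 loci listed for cellulose synthesis, 3 could be tested. By limma 0 of them passed. At an unadjusted p under 0.05, 1 was lower and 0 higher, where 13.6% and 14.1% of all tested probe sets were. The one with the smallest p was AT5G42860, which read 93.0 and 66.9 in infested leaves, against 188.4 and 200.6 in uninfested leaves. Its log2 change of -1.15 had an adjusted p of 0.0512 by limma and 0.0184 with the block. It also passed with a pseudocount of 64, with quantile or median scaling and without a variance trend. It met the required level only through the uninfested group, so it had to differ and lends the counts no weight. COB, whose product orients cellulose deposition, had a log2 change of -0.39. In the glucosinolate list, the pathway tied to IQD1, 2 of 17 genes were tested. BCAT4, of methionine-derived glucosinolates, had -0.29 (adjusted p = 0.286) and UGT74B1 had 0.07.

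Some other genes of calcium signalling rose. Over all tested probe sets 2.83% were called higher by limma and 9.19% with the block. Of 7 tested calmodulin-like genes, whose products sense calcium, CML41 rose (log2 change 3.05, limma adjusted p = 0.0240). With the block CML43 (0.96) and CML37 (1.36) rose too, and the list median was 0.61. Of 6 tested glutamate receptor-like genes, which encode cation channels, 3 rose: GLR2.8 (1.57, adjusted p = 0.0405), GLR2.7 (1.42, 0.0449) and GLR1.4 (1.22, 0.0421). GLR2.8 met the required level only through the infested group, as did CML37 and CML43, so these had to differ. They lend no weight to the counts or to the calmodulin-like list median. GLR2.7 no longer passed with median scaling, at an adjusted p of 0.0505, or without a variance trend, at 0.0506. None of the 4 passed with every probe set tested. The fits without either uninfested array cannot decide on these genes, because they called no tested probe set at all. Of the list of CAMTA and CBP60 factors, which bind calmodulin and DNA, 3 of 9 loci were tested and 0 passed. At an unadjusted p under 0.05 there were 0, where 14.1% of all tested probe sets were higher. Their log2 changes ran from 0.03 to 0.48, the last for AT3G16940.

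**Figure D4:**
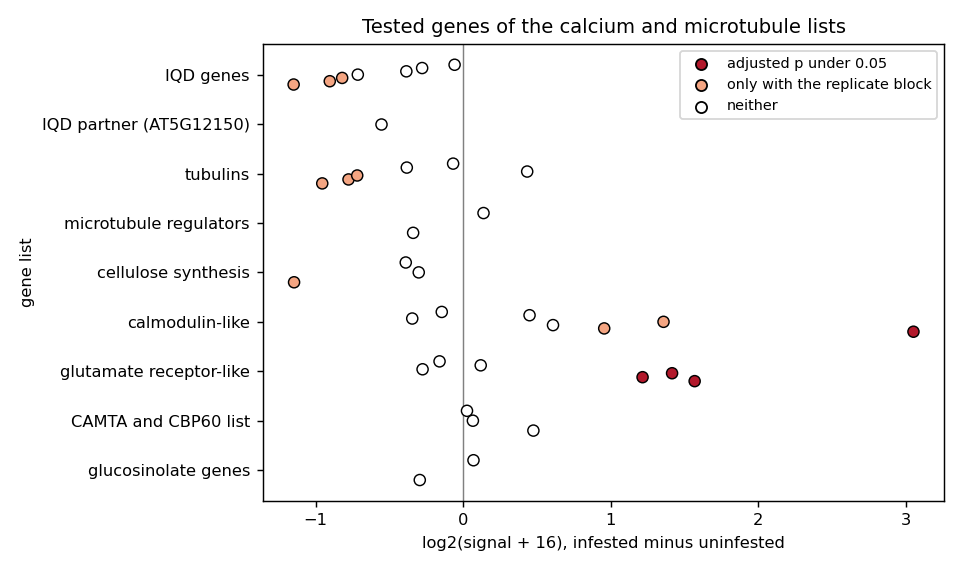
Log2 change (infested minus uninfested, log2(signal + 16)) of each tested gene in the IQD family and in 8 lists of calcium, microtubule and wall genes; red points passed limma's test, light points passed only with the replicate block, and open points neither. The 7 IQD points lie left of 0, and all 4 red points belong to calmodulin-like and glutamate receptor-like genes at the right.

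The genes with 1 symbol whose profile over the 4 arrays was nearest to the mean profile of the 7 members were RAP, AT3G49650, AT4G19830, AT5G61570 and LPA1. The Euclidean distances of the centred log2 profiles were 0.0174 for RAP, which serves chloroplast ribosomal RNA maturation, and 0.0574 for LPA1, which serves photosystem II assembly. The members themselves lay between 0.10 (IQD19) and 0.653 (IQD30) from their mean. RAP read 343.7 and 230.3 in infested leaves, against 443.6 and 439.7 in uninfested leaves. Its log2 change was -0.62 and it was lowest on infested 2, both of which follow from its choice by profile. A profile of 4 arrays is short, and likeness over it says little.

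Some other measures also differed between the arrays, though not all in the same direction. Of 5 guard cell markers 2 were tested, with a summed signal of 1194 and 1018 in infested leaves and 2094 and 1995 in uninfested leaves. Most of that sum was AT1G22690, which read 938 and 854 in infested and 1841 and 1711 in uninfested leaves. It fell by 0.97 on the log2 scale (limma adjusted p = 0.0411). AT1G22690 did not pass with every probe set tested (limma adjusted p = 0.0763). Its log2 change was -0.92 without uninfested 1 and -1.03 without uninfested 2, in fits that called no tested probe set at all. FMA, a transcription factor gene of guard cell fate, had -0.36 on that scale, with a limma adjusted p of 0.386. Its groups overlapped, with 256 and 164 in infested and 253 and 284 in uninfested leaves. The ratio of 3' to 5' signal of one actin control pair, a sign of RNA integrity, was 5.70 and 6.56 on infested and 2.70 and 3.88 on uninfested arrays, while a second actin pair had 1.31 and 1.43 against 1.43 and 1.42. Both ubiquitin pairs were lower on the infested arrays, with 2.08 and 1.87 against 2.77 and 2.34, and with 1.45 and 1.31 against 1.64 and 1.74. The GAPDH pairs had 0.975 and 1.02 against 1.17 and 1.15, and 1.14 and 1.18 against 1.09 and 0.980, so these ratios did not share a direction. The part of guard cells or RNA integrity in the IQD values was not tested.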

How the data were processed

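Rosette leaf RNA was hybridized to 4 one-colour ATH1 arrays, 2 infested and 2 uninfested, grouped by sample title. The deposited intensity values are signals that the authors computed with MAS 5.0 at its standard settings, per the labels and the series' design text. The mean signal, trimmed by 2% at each end, was 500.04 on every array. Of 22810 probe sets, 64 were controls and were not tested. Values were transformed to log2(signal + 16), so folds of dim genes are understated, and probe sets below the 40th percentile of the mean were not tested, which left 13648. The test was limma's (version 3.58.1, R 4.3.3; lmFit and eBayes with a variance trend, 2 residual and 3.66 prior degrees of freedom), with Benjamini-Hochberg adjustment over all of them; the code was tested on simulated data. An exact permutation test of 2 against 2 arrays cannot go below p = 0.333. P-values measure the spread between RNA pools.

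Probe sets were named from the platform annotation and matched by gene number to RefSeq (TAIR10.1), 13436 of 13513 with 1 gene. Another 503 had several genes and 8730 are unnamed here. The design text gives each array experiment both an infested and a control pool, so equal replicate numbers were taken as pairs; deviations of same-numbered arrays had a correlation of 0.264 across probe sets. Standard errors and p-values with the block rest on 1 residual and 7.26 prior degrees of freedom, while the log2 changes stay those of the main fit.

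Named genes were every member, the members of each list that passed (up to 4 by p) or else the one with the smallest p, and the 5 nearest profiles; FMA, TUA1, TUB6, TUA6, CML43, CML37, UGT74B1, COB, SPR1 and the lower-case symbols were added after their values were seen. The members, lists and tests were chosen with earlier results of these data known. Alternatives were the pseudocount (1, 64), the filter (none, 60th percentile), quantile and median scaling, the block, no variance trend, each array left out, and, chosen after seeing the data, symbols in either case and IQD19 left out.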

Additional observations from a re-analysis of the deposited data

Results flagged for a closer look

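IQD27, left out of the comparison because its mean lay below the filter, had a mean signal of 63.5 ± 4.03 in infested and 31.5 ± 21.2 in uninfested leaves (SD, n = 2 each). It was singled out because both infested values were above the highest control for a transcript not added, on the same array (52.1 on infested 1 and 41.7 on infested 2) and above both uninfested values. With every probe set tested, it did not pass (log2 change 0.82, limma adjusted p = 0.299).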

How the results depend on the processing

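The count of IQD members that passed as lower was 0, and it was 1 with quantile normalization, 1 with median scaling and 3 with the replicate block; it ran from 0 to 5 when single arrays were left out, as the share of all tested probe sets called lower ran from 0 to 18.7%. It was 0 with either other pseudocount, without the filter, with the filter at the 60th percentile (which left 5 members), without a variance trend, with symbols in either case and with IQD19 left out (median -0.60). The count passing as higher was 0 in all of these. The median log2 change ran from -0.79 (pseudocount 1) to -0.39 (60th percentile, 5 members), and from -1.01 to -0.42 with single arrays left out. IQD28 turned positive without uninfested 2 (0.02) and without infested 2 (0.13), in a range from -0.25 to 0.13 with single arrays left out. The other 6 members kept their direction in every alternative in which they were tested; IQD19 and IQD30 were not tested with the filter at the 60th percentile. Of 30 other calcium, microtubule, wall and glucosinolate genes 0 were lower and 4 higher; the lower count was 1, AT5G42860, with a pseudocount of 64, with quantile normalization, with median scaling and without a variance trend, 4 with the replicate block, and 0 to 7 with single arrays left out. The higher count was 0 without the filter, 3 with median scaling, without a variance trend and at the 60th percentile, 6 with the block, and ran from 0 to 9 with single arrays left out. Of all tested probe sets the main fit called 2.54% lower and 2.83% higher, and the fit with the block 10.3% and 9.19%. With single arrays left out, the calls also varied across the whole table, and not for these genes alone. At the 60th percentile 20 of the 30 genes were tested. AT5G42860, GLR2.8, CML37 and CML43 met the required level only through 1 group, so they had to differ and lend these counts no weight. Over all probe sets, median scaling changed the calls from 386 higher and 347 lower to 342 and 589. The fit with the replicate block changed no member's call other than those of IQD22, IQD30 and IQD31. That fit rests on 7.26 prior degrees of freedom, against 3.66 in the main fit. It called 10.3% of all tested probe sets lower, against 2.54%. For IQD22 the standard error was larger with the block, at 0.216 against 0.205. How much of these calls is due to the pairing was not tested. With 2 arrays per group, even the log2 change of -1.15 for IQD30 did not pass the main limma test, and no limit of detection was computed. Differences as small as those of IQD23 and IQD28 could not be told from none.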
